A study of Mus musculus with 6 samples.

Results

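The IL-1 cytokine family and its receptors were followed in cells sorted from the mouse stomach as F4/80-positive macrophages. The 10 genes described are Il33, Il1rl1, Il1rap, Il1a, Il1b, Il1rn, Il1r1, Il1r2, Il18 and Il18bp, taken by symbol from a table of 23049 genes, in which each of them has 1 row. The mice had received DMP-777, given to bring on SPEM (spasmolytic polypeptide-expressing metaplasia), or L635, given to bring on SPEM with intestinal features, per the series' design text. Each treatment had 3 libraries, and a library is named here by its treatment and replicate. DMP-777 inhibits neutrophil elastase, which its analog L635 is known not to do, and acid-secreting parietal cells are lost under either compound. The sources used here do not give dose, treatment time, strain, age or how many animals stand behind a library, so the p-values measure only how these samples scatter, and some of that scatter may be technical. No untreated animals were analysed here. Since dose and time are not given for either compound, a difference between the groups cannot be told apart from a difference in these.

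IL-1 alpha and IL-1 beta bind the receptor IL1R1, which signals only after it has recruited the accessory protein encoded by Il1rap. The antagonist encoded by Il1rn occupies the same receptor without a signal, and the decoy receptor IL1R2 captures IL-1 without a signalling tail. IL-33, encoded by Il33, is stored in the nucleus and released by damaged cells, and it acts through ST2, the product of Il1rl1, with the same accessory protein. IL-18, which like IL-1 beta is matured by caspase-1, is held in check by the soluble binding protein encoded by Il18bp. IL-33 is best known from epithelial, endothelial and stromal cells, and ST2 from mast cells, group 2 innate lymphoid cells and other cells of type 2 immunity. IL-18 is made both by macrophages and by epithelium.

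The stretches of DNA around the annotated starts of the 4 ligand genes Il33, Il1a, Il1b and Il18 are shown because Il33 had the widest spread and Il18 the only groups that did not overlap, with the IL-1 genes Il1a and Il1b beside them. Each is the 250 bases before and 50 bases after a RefSeq start, written 5′ to 3′ on the strand of the gene, with a match to TATAAA on either strand in capitals. The positions on GRCm38.p6 are chr19:29924863-29925162 (plus strand) for Il33, chr2:129309923-129310222 (minus strand) for Il1a, chr2:129371090-129371389 (minus strand) for Il1b and chr9:50554450-50554749 (plus strand) for Il18.
Il33: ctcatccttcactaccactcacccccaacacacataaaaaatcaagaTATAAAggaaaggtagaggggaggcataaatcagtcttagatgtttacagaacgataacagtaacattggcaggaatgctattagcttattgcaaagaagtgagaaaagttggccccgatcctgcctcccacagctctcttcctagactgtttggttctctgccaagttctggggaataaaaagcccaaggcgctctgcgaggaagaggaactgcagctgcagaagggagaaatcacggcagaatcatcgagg
Il1a: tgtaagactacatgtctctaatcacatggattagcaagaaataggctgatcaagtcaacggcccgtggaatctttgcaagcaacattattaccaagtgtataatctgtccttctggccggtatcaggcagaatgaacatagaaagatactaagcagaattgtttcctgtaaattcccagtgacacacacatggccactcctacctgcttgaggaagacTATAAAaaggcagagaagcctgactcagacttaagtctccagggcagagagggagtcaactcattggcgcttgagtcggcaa
Il1b: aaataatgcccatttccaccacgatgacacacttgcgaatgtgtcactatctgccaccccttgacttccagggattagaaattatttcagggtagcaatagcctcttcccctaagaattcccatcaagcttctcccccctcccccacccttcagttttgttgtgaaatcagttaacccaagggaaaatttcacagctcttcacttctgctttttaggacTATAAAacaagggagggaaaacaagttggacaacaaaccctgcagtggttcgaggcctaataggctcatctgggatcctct
Il18: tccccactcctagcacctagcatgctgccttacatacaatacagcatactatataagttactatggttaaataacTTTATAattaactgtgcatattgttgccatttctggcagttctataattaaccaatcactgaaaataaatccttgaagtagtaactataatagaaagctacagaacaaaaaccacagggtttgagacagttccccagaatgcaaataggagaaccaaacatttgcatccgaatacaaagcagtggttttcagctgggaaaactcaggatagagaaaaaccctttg
In Il1a the match begins 32 bases before the start and in Il1b 31 bases before it, whereas in Il33 it lies 203 bases before the start and in Il18 175 bases before it on the opposite strand. The RefSeq tables hold 15 such windows for the 10 genes. TATAAA was found in at least 1 window of Il33, Il1a, Il1b, Il1rn and Il18 and in none of those of the 4 receptor genes or Il18bp. Counted by window, TATAAA was held by 6 of these 15, and by 13.6% of all 32851 windows. This motif was picked for display after the search. Of the other motifs searched on both strands, an NF-kappaB motif of GGGA and CC parted by any 4 bases (20.7% of all windows) was found for Il1rn and Il1rap, TGACTCA (5.20%) for Il1a and Il1rn, and GAGGAAG (13.6%) for Il1a and Il33. Each of these other motifs was held by 2 of the 15 windows. A match describes letters only, and no binding data were used. In the deposited table Il18 begins at position 50575273 of chromosome 9, which is 20573 bases from the RefSeq start of the window, so its values may not cover the first exons.

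The values were read as RPKM (reads per kilobase of gene length and by library depth), with a floor of 1 below which the deposited table does not go. Library depths, inferred from the spacing of low values, ran from 4270000 reads in L635 replicate 2 to 20930000 in L635 replicate 3. All 11 macrophage markers examined, among them Emr1, which encodes F4/80, Csf1r and Cd68, lay above the floor in every library, with a summed level of 1186 to 2258 RPKM in DMP-777 and 1223 to 2224 in L635. The labelled cell type is thus seen in each library, but so are other cells: markers of surface mucous cells summed to between 2865 and 12279 RPKM. With bulk RNA, fewer cells of a type and less RNA per cell cannot be told apart.

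Of the 10 genes, 6 had a higher and 4 a lower mean log2 level in L635, the median of their log2 fold changes being 0.12 against 0.0025 for all 12076 genes tested, and 6 of the 10 changed sign in at least 1 alternative. None of the 10 passed limma's moderated test, with adjusted p-values over all genes from 0.409 to 0.984 (Benjamini-Hochberg). Across all genes tested, 0 passed, or 0%. A p that misses the threshold does not show that the compounds act alike, so the interval of each difference is given. At an unadjusted p below 0.05 there were 2 of the 10, Il18 (lower) and Il1r2 (higher), or 20.0%, against 10.1% of all genes. Il18 stayed below that p in all 13 alternatives, whereas Il1r2 lay above it, between 0.0757 and 0.133, in 4 of them (no filter on low genes, and without DMP-777 replicate 1, L635 replicate 2 or L635 replicate 3). That background was 3.78% higher and 6.34% lower, so 37.3% of those 1222 genes were higher. The genes below that p under another scaling divided otherwise, with 26.5% of them higher after median centring, 47.2% after quantile normalization and 43.6% after centring on macrophage markers. Leaving out DMP-777 replicate 2 gave 621 such genes, leaving out L635 replicate 3 gave 651, and leaving out L635 replicate 2 gave 806. For 1 of the 10 genes, Il18, the 3 libraries of L635 lay apart from those of DMP-777, while 16% of all genes had groups that did not overlap.

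**Figure D1:**
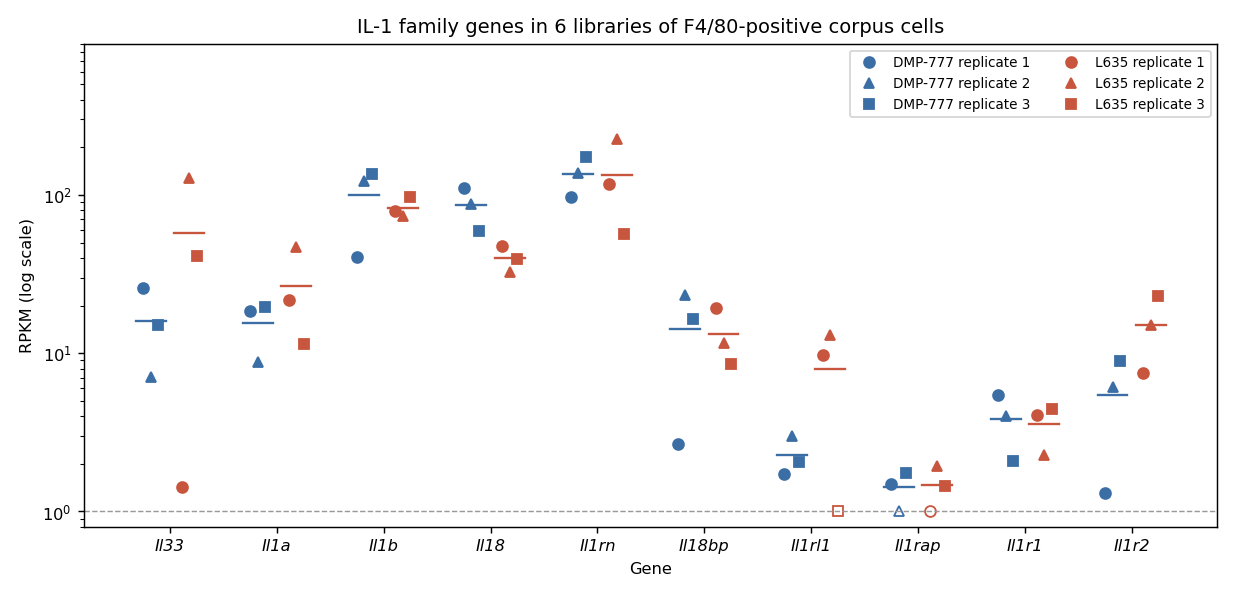
Level of each gene in each library, in RPKM on a log scale; circles, triangles and squares are replicates 1, 2 and 3, open symbols lie at the floor of 1 (dashed) and short lines are group means. The 3 L635 values of Il18 lie below all 3 DMP-777 values, and Il33 spans from 1.44 to 129 RPKM within L635.

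Averaged over the 6 libraries, the order of the levels was Il1rn (135 RPKM), Il1b (91.5), Il18 (62.9), Il33 (36.6), Il1a (21.1), Il18bp (13.7), Il1r2 (10.3), Il1rl1 (5.11), Il1r1 (3.72) and Il1rap (1.44). Neighbours in this order often changed places between libraries. Il1rn was above Il1b in 5 of 6 libraries, Il1b above Il18 in 5 and Il18 above Il33 in 4. The levels of Il33 and Il1a could not be put in order, with Il33 higher in 3 of 6 libraries, and Il1rl1 was above Il1r1 in 2 of 6 although its mean was higher. Only the lowest step, Il1r1 above Il1rap, held in 6 of 6. The order by means did not hold in each library: Il18 led in DMP-777 replicate 1, and in L635 replicate 2 Il33 was above Il1b.

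Il33 on chromosome 19 (29925114 to 29960718) was at 25.9, 7.05 and 15.2 RPKM in replicates 1, 2 and 3 of DMP-777 and at 1.44, 129 and 41.2 RPKM in L635 replicates 1, 2 and 3. Both the highest and the lowest of the 6 values came from L635, 89.7-fold apart, so the groups overlapped. The group means were 57.1 ± 65.1 RPKM for L635 and 16.1 ± 9.47 for DMP-777 (SD, n = 3 each). On the log2(RPKM + 1) scale its pooled standard deviation within groups, 2.18, was larger than that of 99.9% of the genes tested, and most of it lay in L635 (SD 2.96, against 0.87 in DMP-777, n = 3 each). The log2 fold change was 0.64 ± 1.05 (SE, adjusted p = 0.856 by limma), with a 95% interval from -1.62 to 2.91. It was 2.28 without L635 replicate 1 (adjusted p = 0.264 by limma) and turned to -0.58 without L635 replicate 2.

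Marker levels of the cells known to hold IL-33 are set beside these values, and the part of such cells in the Il33 values was not tested. The 12 endothelial markers summed to 18.5 to 35.8 RPKM in DMP-777 and 14.1 to 20.4 in L635, where a list wholly at the floor gives 12 RPKM. Between 2 and 8 of them were above the floor in a library, and Kdr, Tie1, Emcn and Cldn5 were at the floor in all 6. Pecam1 was above it in all 6 (2.20 to 8.69 RPKM), highest in L635 replicate 2, as Il33 was, and lowest in DMP-777 replicate 1. The rest were highest in DMP-777 libraries: Plvap (16.4 RPKM) and Esam (5.66) in replicate 2, Cdh5, Tek, Egfl7 and Robo4 in replicate 1 and Vwf in replicate 3. The 12 fibroblast and stromal markers summed to 76.1, 54.2 and 68.9 RPKM in replicates 1, 2 and 3 of DMP-777, the same order as Il33 there. That order was not shared by single markers. Dcn was at 50.6, 20.2 and 7.56 RPKM in these libraries, Col1a1, Col1a2 and Col3a1 were highest in replicate 3, and Lum and Fbln1 in replicate 2. In L635 replicates 1, 2 and 3 the sums were 90.8, 53.4 and 14.1 RPKM, and the library with the lowest Il33 had the most. The 8 general epithelial markers were at 1143, 1236 and 812 RPKM in the DMP-777 libraries and at 887, 884 and 653 RPKM in those of L635. Per 1000 RPKM of these epithelial markers Il33 was at 1.62, 146 and 63.2 in L635 replicates 1, 2 and 3, and at 22.7, 5.70 and 18.7 in DMP-777.

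By the root mean square difference between profiles over the 6 libraries, each centred on its own mean of log2(RPKM + 1), the genes most like Il33 were Areg (0.95), SYNE1 (1.00, spelled so in the table) and Ptgs2 (1.02). Areg encodes amphiregulin, a ligand of the EGF receptor, and Ptgs2 the inducible cyclooxygenase. Areg was at 15.5, 13.6 and 12.3 RPKM in the DMP-777 libraries and at 3.25, 35.1 and 22.1 RPKM in L635, so that the same L635 library was lowest and the same one highest as for Il33. These distances are large beside those found for Il1rl1 and Il1b below.

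Il1rl1, the gene of the IL-33 receptor ST2 on chromosome 1 (40429570 to 40465415), was at 1.73, 3.0 and 2.06 RPKM in DMP-777 replicates 1 to 3. In L635 it was at 9.80 and 13 RPKM in replicates 1 and 2 and at the floor of 1 in replicate 3. L635 thus held the 2 highest values and the lowest one. The log2 fold change was 1.06 ± 0.65 (SE, adjusted p = 0.594 by limma), with a 95% interval from -0.35 to 2.47. Without L635 replicate 3 it was 1.93 (adjusted p = 0.891 by limma) and without L635 replicate 2 it was 0.53.

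Markers of cells known to carry ST2 differed widely between the same L635 libraries. The 11 mast cell markers summed to 1118, 85.5 and 13.2 RPKM in L635 replicates 1, 2 and 3, against 213 to 426 in DMP-777. In L635 replicate 1 all 11 were above the floor, including the mast cell carboxypeptidase Cpa3 at 116 RPKM and the stem cell factor receptor Kit at 33.7, whereas in replicate 3 only 2 were, and Cpa3, Kit, Fcer1a and Ms4a2 were at the floor. In L635 replicate 2, with the highest Il1rl1, Fcer1a and Ms4a2 were also at the floor. The 7 eosinophil markers summed to 313 RPKM in this library, against 168 and 90.3 in L635 replicates 1 and 3 and 118 to 247 in DMP-777. Ccr3, the eotaxin receptor, was at 77.5 RPKM there, against at most 13.5 in any other library, whereas Ear2, an eosinophil ribonuclease gene, was at 150 RPKM there and at up to 207 in DMP-777, and the peroxidase gene Epx was at the floor in all 6. The sum of neutrophil markers was also highest in this library, at 529 RPKM, of which Retnlg made up 471. Cxcr2 was highest there too (25.4 RPKM), whereas Csf3r was at its lowest (11.9) and S100a8 near the floor (1.23). The 14 markers of innate lymphoid and T cells summed to 38.9 to 45.5 RPKM in DMP-777 and 23.2 to 84.9 in L635, with 2 to 9 of them above the floor. Gata3 and Cd3g were at the floor in every library, Il7r was above it in every library (5.94 to 10.4 RPKM), and Cd4 was at 53.2 RPKM in L635 replicate 1. The part of these cells in the Il1rl1 values was not tested.

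**Figure D2:**
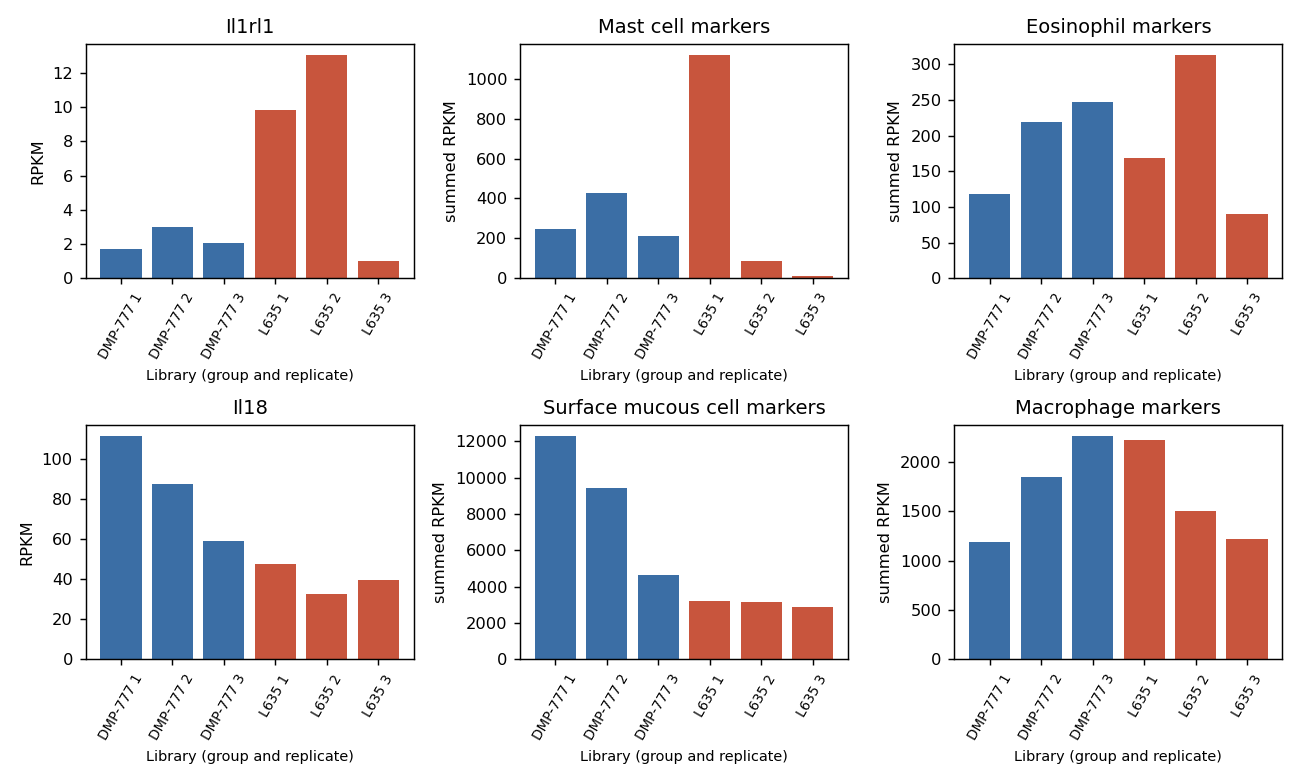
Il1rl1 and Il18 in RPKM, beside the summed RPKM of marker lists for mast cells (11 genes), eosinophils (7), surface mucous cells (9) and macrophages (11), 1 bar per library. L635 replicate 1 holds the most mast cell signal (1118 RPKM), L635 replicate 2 the most eosinophil signal (313 RPKM), and L635 replicate 3, where Il1rl1 is at the floor, the least of both. Low sums there are not particular to these cells. That library is also lowest for surface mucous cell (2865 RPKM), general epithelial (653) and fibroblast and stromal markers (14.1), though not for macrophage markers.

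The genes most like Il1rl1 were Cdkl4 (0.41), the matrix gene Dpt (0.45), which encodes dermatopontin, and the inositol transporter gene Slc5a3 (0.48). Dpt was at 1.94, 1.83 and 3.80 RPKM in the DMP-777 libraries and at 17.4, 11.0 and 1.29 in L635. Il1rap, the co-receptor shared by IL-1 and IL-33, was the lowest of the 10 genes (chromosome 16, 26581704 to 26730117). It was at 1.5, 1 and 1.76 RPKM in the DMP-777 libraries and at 1, 1.94 and 1.45 in L635, so that 1 library of each group was at the floor. Its log2 fold change of 0.02 had a 95% interval from -0.70 to 0.75 (adjusted p = 0.984 by limma), and its sign turned after quantile normalization and after median centring.

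Il1a and Il1b lie close together on chromosome 2 (129299610 to 129309972 and 129364570 to 129371139). Il1a was at 18.4, 8.85 and 19.5 RPKM in the DMP-777 libraries and at 21.6, 47.0 and 11.4 in L635. L635 replicate 2 was highest, as for Il33, L635 replicate 1 lay just above the range of DMP-777 and L635 replicate 3 inside it. The log2 fold change of Il1a was 0.59 ± 0.48 (SE, adjusted p = 0.689 by limma), or 0.09 without L635 replicate 2. Il1b was at 40.6, 122 and 137 RPKM in the DMP-777 libraries and at 78.9, 74.0 and 96.4 in L635. The L635 values lay inside the range of the DMP-777 values, and the log2 fold change of -0.09 (adjusted p = 0.953 by limma, 95% interval from -0.99 to 0.81) became 0.40 after quantile normalization. The lowest Il1b, in DMP-777 replicate 1, came from the library with the lowest sum of macrophage markers, 1186 RPKM. Per 1000 RPKM of those markers Il1b was at 34.2, 66.2 and 60.5 under DMP-777 and at 35.5, 49.3 and 78.8 in L635, again overlapping. The profiles nearest to that of Il1b were those of Calml4 (0.09), Med29 (0.11) and Il10rb (0.13), the last encoding the shared beta chain of the IL-10 receptor.

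Il1rn, the gene of the IL-1 receptor antagonist on chromosome 2 (24336853 to 24351494), was at 97.0, 139 and 173 RPKM in the DMP-777 libraries and at 118, 225 and 56.9 in L635. Again both extremes came from L635, with replicate 2 highest and replicate 3 lowest. The log2 fold change was -0.20 (adjusted p = 0.897 by limma, 95% interval from -1.17 to 0.76) and became 0.18 after quantile normalization and 0.30 without L635 replicate 3. Per 1000 RPKM of macrophage markers Il1rn was at 81.8, 75.1 and 76.7 in the DMP-777 libraries, 77.8 ± 3.51 (SD, n = 3), and at 53.0, 150 and 46.5 in those of L635, 83.3 ± 58.2 (SD, n = 3). The antagonist thus kept a nearly fixed proportion to the summed macrophage markers within DMP-777 but not within L635. Lyz2 was the largest part of that sum in each library, at 619, 913 and 1238 RPKM in DMP-777. Single markers did not all keep the proportion there, with Cx3cr1 at 11.4, 30.3 and 61.4 RPKM and Itgam at 67.7, 58.0 and 85.0. This scaling was chosen after the values were seen, and the difference in spread was not tested.

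Il1r1, the signalling receptor for IL-1 (chromosome 1, 40225080 to 40316198), was at 5.44, 4.01 and 2.09 RPKM in the DMP-777 libraries and at 4.05, 2.26 and 4.47 in L635, with a log2 fold change of -0.05 (adjusted p = 0.978 by limma, 95% interval from -1.05 to 0.95). The groups covered the same range, and the sign turned once each library was centred on its macrophage markers. Il1r2, the decoy receptor (chromosome 1, 40084768 to 40125219), was at 1.3, 6.09 and 8.99 RPKM in the DMP-777 libraries and at 7.46, 15.2 and 22.8 in L635. The groups overlapped by the highest DMP-777 and the lowest L635 library, with means of 5.46 ± 3.88 and 15.2 ± 7.69 RPKM (SD, n = 3 each). Its log2 fold change of 1.44 ± 0.58 (SE, adjusted p = 0.443 by limma) had a 95% interval from 0.19 to 2.69 and was the largest among the 10 genes. The value was 0.82 without DMP-777 replicate 1, in which Il1r2 was near the floor, and 1.88 without DMP-777 replicate 3. Neutrophils are known to carry the decoy receptor. The 11 neutrophil markers, led by Retnlg, summed to 156 to 346 RPKM in DMP-777 and 160 to 529 in L635, with 4 to 7 of them above the floor. Ly6g and Mpo were at the floor in all libraries, while Retnlg, Csf3r (11.9 to 52.7 RPKM), Cxcr2 (2.66 to 25.4) and Mmp8 (5.66 to 16.8) were above it in all. In L635 replicate 3, with the highest Il1r2, the sum was 167 RPKM, with Retnlg at 79.5, its lowest, and Csf3r at 50.8, near its highest. The part of neutrophils in the Il1r2 values was not tested. Per 1000 RPKM of macrophage markers Il1r2 was at 1.10, 3.29 and 3.98 under DMP-777 and at 3.35, 10.1 and 18.7 in L635.

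Il18 on chromosome 9 (50575273 to 50581837) was at 111, 87.3 and 59.0 RPKM in the DMP-777 libraries and at 47.8, 32.6 and 39.5 RPKM in L635. All 3 L635 values were below the lowest DMP-777 value, as were those of 8.76% of all genes tested. The group means were 85.8 ± 26.2 and 40.0 ± 7.61 RPKM (SD, n = 3 each), and the log2 fold change was -1.05 ± 0.32 (SE, limma unadjusted p = 0.00563, adjusted p = 0.409), with a 95% interval from -1.74 to -0.37. It stayed negative in each of the 13 alternatives, between -1.30 and -0.64, the smallest being that after quantile normalization.

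The sum of markers of surface mucous cells, which line the gastric pits, was likewise lower in L635 in value. Their 9 genes summed to 12279, 9455 and 4672 RPKM in DMP-777 and to 3243, 3167 and 2865 in L635. Tff1, Gkn1 and Gkn2 made up most of each sum and lay entirely below in L635. Gkn3, Muc5ac, Psca, Dpcr1, Capn8 and Capn9 overlapped between the groups. Per 1000 RPKM of all 9 markers Il18 was at 9.06, 9.23 and 12.6 under DMP-777 and at 14.7, 10.3 and 13.8 in L635, values that overlapped. Per 1000 RPKM of the 8 general epithelial markers it was at 97.4, 70.6 and 72.6 against 53.9, 36.9 and 60.6, which did not overlap. Against the 11 macrophage markers it was at 93.8, 47.2 and 26.1 under DMP-777 and at 21.5, 21.7 and 32.3 in L635, which overlapped. These 3 scalings were chosen after the values were seen, and the part of epithelial or macrophage RNA in the Il18 difference was not tested.

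Il18bp on chromosome 7 (102015079 to 102018155) was at 2.67, 23.4 and 16.5 RPKM in the DMP-777 libraries and at 19.4, 11.6 and 8.51 in L635. DMP-777 replicate 1 was far below the others, and the remaining 5 libraries lay between 8.51 and 23.4. The log2 fold change of 0.21 (adjusted p = 0.92 by limma, 95% interval from -1.11 to 1.54) turned to -0.62 without that library.

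**Figure D3:**
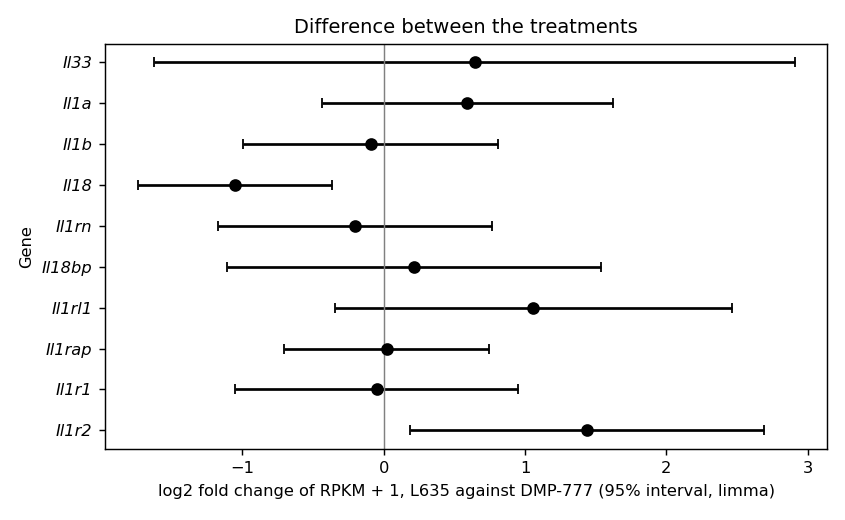
Log2 fold change of RPKM + 1 for each gene, L635 against DMP-777, with the 95% interval from limma (3 libraries per group). The intervals of Il18 (-1.74 to -0.37) and Il1r2 (0.19 to 2.69) leave out 0 before adjustment, that of Il33 is the widest, and the signs of Il33, Il1b, Il1rn, Il1r1, Il1rap and Il18bp turn in at least 1 alternative.

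Within a library, the ratio of 2 genes does not depend on how the library was scaled. The antagonist to IL-1 beta ratio (Il1rn to Il1b) was 2.39, 1.13 and 1.27 in DMP-777 and 1.49, 3.05 and 0.59 in L635, so that L635 replicate 3 alone had less antagonist than IL-1 beta transcript. The decoy to signalling receptor ratio (Il1r2 to Il1r1) was 0.239, 1.52 and 4.31 in DMP-777 and 1.84, 6.72 and 5.11 in L635, a difference of 1.78 on the log2 scale (exact two-sided permutation p = 0.2, adjusted p = 0.75 over the 5 ratios tested). It was 0.64 without DMP-777 replicate 1 and 2.73 without DMP-777 replicate 3. The ligand to binding protein ratio Il18 to Il18bp was 3.57 to 41.7 in DMP-777 and 2.46 to 4.65 in L635 (difference of -1.37, exact two-sided permutation p = 0.3, adjusted p = 0.75). DMP-777 replicate 1 alone gave the high end, at 41.7, and without it the difference was -0.20. The ratio of Il1a to Il1b differed by 0.71 (exact permutation p = 0.6) and that of Il33 to Il1rl1 by -0.71 (exact permutation p = 0.9), each with an adjusted p of 1. Il33 was below its receptor transcript in 1 library, L635 replicate 1, at a ratio of 0.147, and above it in the other 5. The groups overlapped for all 5 ratios, and with 3 libraries per group the smallest p possible is 0.1. The ratio of Il1rl1 to Il1rap was not formed, since Il1rap was at the floor in 2 libraries.

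**Figure D4:**
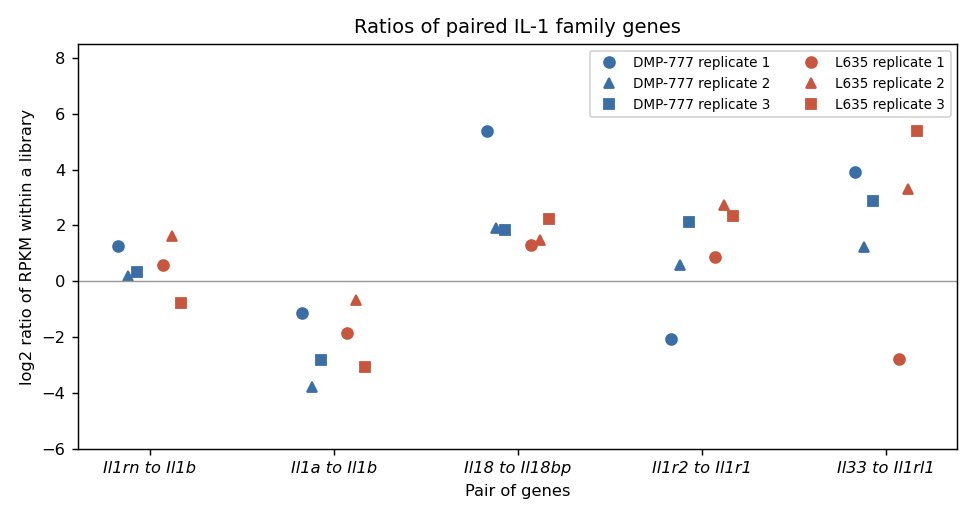
Log2 ratio of the RPKM of 2 genes within each library, for 5 pairs; symbols as in the plot of levels. The groups overlap for each pair, and the ratio of Il33 to Il1rl1 runs from 0.147 to 41.2 within L635, the upper value being a lower limit because Il1rl1 was at the floor there.

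The rest of the pathway was described by 7 lists, in which 0 genes passed the adjusted threshold in either direction. Of the other family ligands, Il1f5, Il1f8 and Il1f10 were at the floor in all libraries, and Il1f9, which encodes IL-36 gamma, was tested and had a log2 fold change of 0.93 (adjusted p = 0.54 by limma). All 5 tested genes among the other receptors of the family had a positive log2 fold change, as had 6057 of all 12076 genes tested. Il18r1, the ligand-binding chain of the IL-18 receptor, was at 1, 1 and 1.37 RPKM in the DMP-777 libraries and at 6.08, 2.27 and 5.49 in L635. It passed the filter on low values only through the L635 libraries, where it was high, so its difference is given as values alone and the direction of the 5 genes is no support. Sigirr, an inhibitory member of the family, had 1.14 (adjusted p = 0.487 by limma) and overlapped, and the IL-18 receptor accessory gene Il18rap had 0.52.

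Of the 14 tested genes of receptor-proximal signalling, 8 had positive and 6 negative log2 fold changes (median 0.09). The ubiquitin-conjugating enzyme gene Ube2n averaged 40.4 ± 7.35 RPKM under DMP-777 and 20.2 ± 3.36 under L635 (SD, n = 3 each), the log2 fold change being -0.96 ± 0.30 (SE, adjusted p = 0.413 by limma) without overlap. The ubiquitin ligase gene Peli1 had 0.89 and the inhibitory adaptor gene Tollip -0.60. Named after their values were seen, Tab1 and Tab2, adaptors of the kinase TAK1, also had L635 values entirely above those of DMP-777, at 0.57 and 0.30. In this list 2 genes thus lay entirely above and 1 entirely below, where 7.23% and 8.76% of all genes tested did.

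The NF-kappaB list had the most genes at an unadjusted p below 0.05, 5 of 13, all higher in L635, where 3.78% of all genes were so. Rel was at 7.26, 11.4 and 13.4 RPKM in the DMP-777 libraries and at 17.1, 34.2 and 26.2 under L635, the log2 fold change being 1.19 ± 0.37 (SE, adjusted p = 0.413 by limma). The kinase gene Ikbkb had 1.08 and Nfkbiz, a nuclear regulator induced by IL-1, 0.79 (limma adjusted p = 0.446 and 0.451). Named after their values were seen, the other two were Tnfaip3 and Nfkb1, at 1.02 and 0.86, and the groups did not overlap for Rel, Ikbkb, Nfkbiz, Nfkb1 and Relb, where 7.23% of all genes lay entirely above. The median of the list was 0.66, and 9 of its 13 genes were higher.

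Of the 14 inflammasome and maturation genes 9 were higher, with a median of 0.39, and 4 were so at an unadjusted p below 0.05, as were 3.78% of all genes. Nlrp1b, Casp4 and Aim2, which encode a sensor of pathogen proteases, the caspase that senses lipopolysaccharide and a sensor of cytosolic DNA, had log2 fold changes of 1.38, 1.32 and 1.20 (limma adjusted p = 0.422, 0.424 and 0.434), and for these 3 genes L635 lay entirely above, as for 7.23% of all genes. Mefv, the pyrin gene, was the other, at 1.33, named after its values were seen. Casp1, which matures IL-1 beta and IL-18, was at 32.5 RPKM on average under DMP-777 and 22.8 under L635, the log2 fold change being -0.63, with overlapping groups, and was likewise chosen afterwards. Of the other proteases that process these cytokines, 8 were tested and divided, 4 higher and 4 lower. The calpain genes Capn1 and Capn2 had -0.78 and 0.35. Elane, which encodes neutrophil elastase, the known target of DMP-777, and Prtn3, another neutrophil protease gene, were at the floor in all libraries.

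The 7 tested genes of the type 2 response downstream of IL-33 were divided, with 4 higher, 3 lower and a median of 0.05. Ccl22 had 1.22 (adjusted p = 0.496 by limma), Il13 0.50 and Rora -0.42. Il13 was at 4.97 RPKM in L635 replicate 1, the library with the most mast cell markers and the least Il33, and at most 1.31 in the others. The sums of innate lymphoid and T cell (84.9 RPKM), dendritic cell (95.3) and fibroblast and stromal markers (90.8) were also highest in that library. The part of any of these cells in the Il13 values was not tested. Il5, Il9 and Gata3 were at the floor in all 6 libraries.

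**Figure D5:**
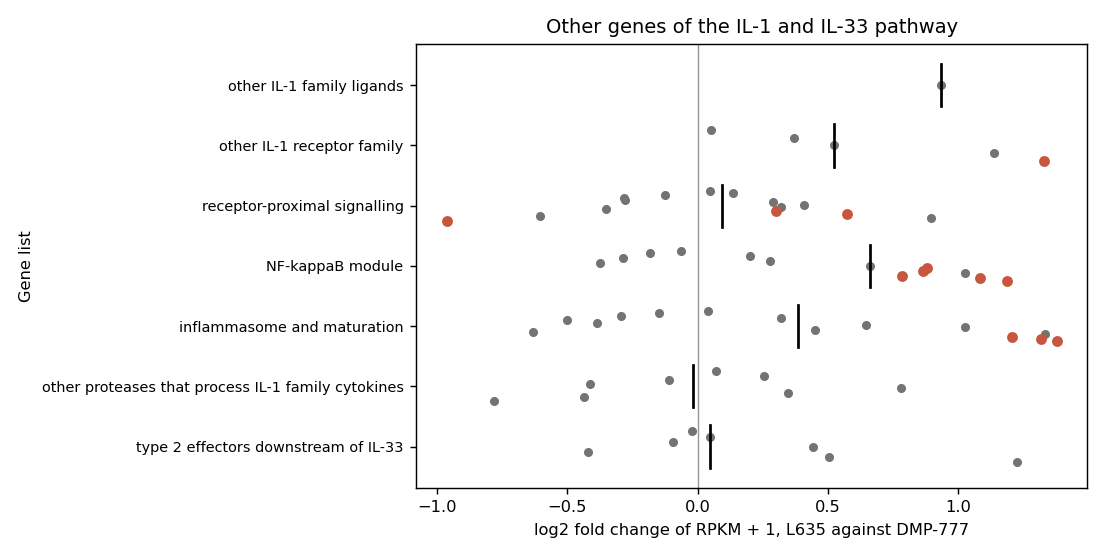
Log2 fold change of RPKM + 1, L635 against DMP-777, for the tested genes of 7 pathway lists (1 point per gene); red points are genes whose groups do not overlap and black lines are list medians. The NF-kappaB median lies at 0.66 and holds 5 red points to the right of 0, and no gene passed the adjusted threshold.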

How the data were processed

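RNA came from F4/80-positive cells sorted after dispase digestion of the corpus, per the labels' protocols, and was amplified with an Ovation kit before single-end sequencing; digestion and amplification can each shift levels. The submitters' processing notes list TopHat 1.4, FastQC, SAMtools and mm9 with no role, and how values were quantified is not stated there. The values the authors deposited carry no unit in their header and were taken as RPKM, because value times exonic length falls on library-specific steps; the steps gave the depths (genes under 4000 bases with a product under 15000). The lowest value is 1. Coordinates overlap GENCODE M21 (GRCm38) for 99.8% of 22268 identifiers and are given as such, although the notes name mm9.

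Groups came from the titles. L635 was compared with DMP-777 by limma 3.58.1 (R 4.3.3) on log2(RPKM + 1), allowing the variance to follow the mean (two-sided, threshold 0.05 after Benjamini-Hochberg), for 12076 symbols above 1 in at least 3 libraries; of rows sharing a symbol the one with the highest mean was used. The pseudocount and floor understate changes of low genes. The step was also run on simulated data with independent normal noise for each gene. That simulation held no shift of a whole library and no mix of cell types, so it does not cover these. Ratios were tested with exact permutations (scipy 1.17.1). The members, the 7 pathway and 13 marker lists and the rules were chosen with earlier results of these data known. Named were all 10 genes, up to 3 genes per pathway list with the smallest p, and the 3 nearest profiles to Il33, Il1rl1 and Il1b; others are said to be chosen afterwards; for 1 further gene picked this way no value is reported here. Marker genes and those at the floor are named as descriptions. Scalings to marker sums were chosen after the values were seen. There were 0 unused columns. Marker lists not discussed in the results summed to 26.9 to 67.8 RPKM in DMP-777 and 19.4 to 95.3 in L635 for dendritic cells, 46.5 to 109 and 43.1 to 79.6 for B and plasma cells, 408 to 1139 and 172 to 784 for parietal cells, and 601 to 1010 and 587 to 671 for chief cells.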

Additional observations from a re-analysis of the deposited data

How the results depend on the processing

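No paired analysis was possible because the labels give no number shared by libraries of different groups. The log2 fold changes of Il1a, Il1rl1, Il1r2 and Il18 kept their sign in each of 13 alternatives (pseudocounts of 0 and 5, other filters, quantile normalization, median centring, centring on macrophage markers, which was added after seeing the data, and each library left out), and none of the 10 genes passed in any, the lowest limma adjusted p being 0.231. The sign turned after quantile normalization for Il1b (0.40), Il1rn (0.18) and Il1rap (-0.0072), after median centring for Il1rap (-0.065) and after centring on macrophage markers for Il1r1 (0.016). With 1 library left out the ranges were -0.58 to 2.28 for Il33, -0.64 to 0.22 for Il1b, -0.69 to 0.30 for Il1rn, -0.34 to 0.19 for Il1r1, -0.11 to 0.16 for Il1rap and -0.62 to 0.75 for Il18bp. For the ratios they were -0.68 to 0.50 for Il1rn to Il1b, -2.41 to 1.66 for Il33 to Il1rl1, 0.10 to 1.43 for Il1a to Il1b, -1.97 to -0.20 for Il18 to Il18bp and 0.64 to 2.73 for Il1r2 to Il1r1. Genes at an unadjusted p below 0.05 numbered 1222, 621 to 1579 with 1 library left out and 535 after centring on macrophage markers, which also gave 1 gene past the adjusted threshold (Gm10800, a predicted gene, named after its value was seen) in place of 0; the cause was not tested. The strict filter left Il1rap untested. At 1 RPKM a gene of 1 kilobase holds 4.3 to 20.9 reads.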

Other observations

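L635 replicate 2, the library of lowest depth, held the highest value of 5 of the 10 genes, Il33, Il1rl1, Il1rap, Il1a and Il1rn, and the lowest of Il18. How many of all genes were highest in that library was not counted. DMP-777 replicate 1 held the lowest value of Il1b, Il1r2 and Il18bp and the highest of Il18 and Il1r1.

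The scatter between libraries of 1 treatment was wide for several of these genes beside that of other genes. The standard errors from limma rest in part on this scatter, and none of the 10 genes passed its test. On the log2(RPKM + 1) scale the pooled SD within groups was 1.10 for Il1rl1 and 1.11 for Il18bp, above 96.8% and 96.9% of the genes tested, 0.95 for Il1r2 (93.3%) and 0.81 for Il1a (86.7%), but 0.37 for Il18 (29.0%).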
